A study of Mus musculus with 3 samples.

Results

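The 32 genes described here encode enzymes of the tricarboxylic acid (TCA) cycle, of pyruvate and glutamate entry into it, and of mitochondrial fatty acid oxidation. They were chosen by symbol, with no measured value in the rule, and are 32 of the 55536 annotated genes measured. Levels were read in cytosolic-fraction total RNA of C57BL/6J macrophages cultured from bone marrow. Lipid A, the TLR4-binding moiety of lipopolysaccharide, was applied at 100 ng/ml for 12 h. After a washout of 12 h, the same dose was applied a second time for 90 min. The 3 libraries form 1 group of replicates 1, 2 and 3 that share a donor record, so the spread below is between these samples only. Age and sex were not collected, per the labels. Cells without Lipid A or with a single exposure were not analysed here, so every value is a level in twice-exposed cells and not a response.

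The TCA cycle oxidises acetyl-CoA in the mitochondrial matrix and passes electrons to the respiratory chain. Acetyl-CoA comes from pyruvate through the pyruvate dehydrogenase complex and from fatty acids, which enter the matrix as carnitine esters and are shortened by beta-oxidation. In macrophages exposed to a TLR4 ligand the cycle is known to be diverted after citrate, where Acod1 turns cis-aconitate into itaconate, while succinate accumulates. All 32 genes are nuclear genes whose mRNAs are translated in the cytosol.

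The libraries held between 40730514 and 70484996 expected counts, of which the 32 genes took between 0.163 and 0.185%. Levels are given in TPM, a transcript abundance corrected for length, and nuclear protein-coding genes took 28.0 to 33.2% of it. The signal recognition particle RNA genes Rn7s1 and Rn7s2 together took 60.4, 60.6 and 56.4% of TPM in replicates 1, 2 and 3. TPM levels and thresholds therefore depend on these RNAs. Rescaling over only the nuclear protein-coding genes would multiply the levels by 3.33 ± 0.284 (SD, n = 3). Of 8 macrophage markers all were detected, with Csf1r, the receptor of a macrophage growth factor, at 146 ± 12.2 TPM. Detected markers of other cells were 2 of 7 for neutrophils (S100a8 and S100a9), 1 of 5 for dendritic cells (Ccr7), 0 of 7 for T, NK or B cells, 0 of 5 for erythroid cells or megakaryocytes and 0 of 7 for stromal, endothelial or fat cells. Summed over each list and library, these markers reached 4937.9 to 5794 TPM for macrophages, 7.89 to 12.9 TPM for neutrophils, 1.52 to 1.87 TPM for dendritic cells and at most 1.11 TPM for the other lists. The neutrophil markers Ly6g and Retnlg had 0 counts.

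Of the 32 genes, 30 were detected, meaning 1 TPM or more in all 3 libraries. The share detected was 16.7% of all annotated genes and 40.1% of nuclear protein-coding genes. The median level of the 32 was 15.1 TPM, against 8.48 TPM over the 8826 nuclear protein-coding genes detected, and 21 of the 32 reached 10 TPM in every library, as 3639 of those 8826 did. The genes not detected were Pcx and Me1. In bulk RNA, a low level in every cell and a high level in few cells cannot be told apart. Between neighbours in the order of mean levels, the ranges over the 3 libraries overlapped in 22 of 31 cases, so ranges alone do not separate most neighbours. Compared within each library, some of these kept their order in 3 of 3, such as Glud1 over Cs. Others did not, such as Dld over Ogdh, in 2 of 3.

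**Figure D1:**
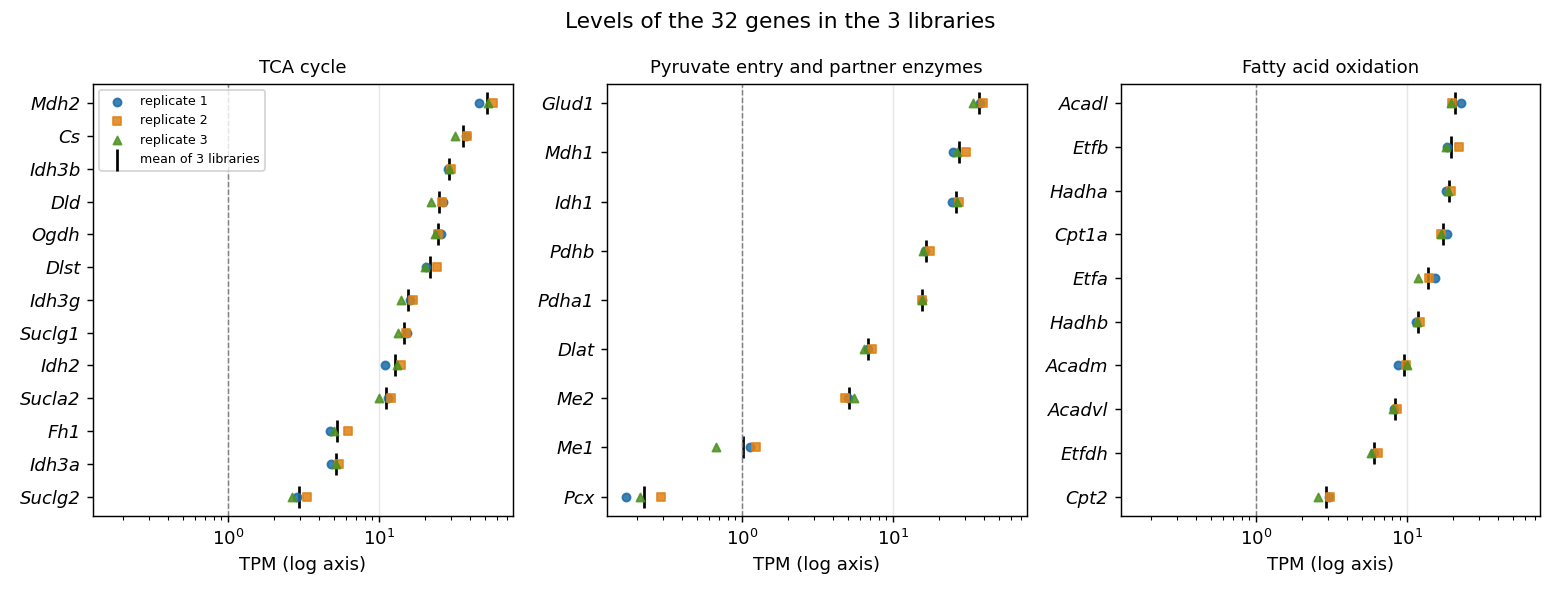
Level of each of the 32 genes in TPM on a log axis, in 3 panels by pathway step; each symbol is a library, the black bar is the mean of 3 libraries, and the dashed line is the detection threshold of 1 TPM. Levels ran between 51.7 TPM for Mdh2 and 0.223 TPM for Pcx, and the 3 libraries of a gene lay close together compared with that span.

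The cycle begins with citrate synthase, encoded by Cs (mm10 chromosome 10, 128337734 to 128362479), which joins acetyl-CoA to oxaloacetate. Cs stood at 37.8, 38.4 and 31.8 TPM in replicates 1, 2 and 3. Its mean of 36.0 ± 3.68 TPM placed it just below Glud1, whose range overlapped with it. The isocitrate step is served by the NAD-linked heterotrimer of Idh3a, Idh3b and Idh3g and by the NADP-linked enzymes Idh2 in mitochondria and Idh1 in the cytosol. Idh3a, the catalytic subunit (chromosome 9, 54586334 to 54604661), had 4.82, 5.44 and 5.19 TPM. The regulatory subunits were higher in every library, with Idh3b at 28.4, 30.0 and 29.0 TPM and Idh3g at 16.1, 16.7 and 14.1 TPM. The log2 ratio of Idh3a to Idh3b was -2.50 ± 0.051 (n = 3) and that of Idh3a to Idh3g -1.60 ± 0.15, so the catalytic subunit was the lowest of the 3 in all libraries. Idh1 had 24.4, 27.4 and 26.4 TPM, and Idh2 had 10.9, 14.0 and 13.2 TPM. Idh1 exceeded Idh2 by 1.05 ± 0.11 on the log2 scale and Idh2 exceeded Idh3a by 1.30 ± 0.10, each in 3 of 3 libraries.

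The oxoglutarate dehydrogenase complex turns 2-oxoglutarate into succinyl-CoA with the subunits Ogdh, Dlst and Dld. Their gene totals were 24.5 ± 1.12 TPM for Ogdh, 21.6 ± 2.37 TPM for Dlst and 24.9 ± 2.43 TPM for Dld. The log2 ratio of Ogdh to Dlst was 0.32, 0.01 and 0.22 in replicates 1, 2 and 3, so replicate 2 showed nearly equal totals. Over protein-coding transcripts alone, an alternative chosen after seeing the data, Dlst was 14.96 ± 1.02 TPM and the ratio of Ogdh to Dlst 0.71 ± 0.06, positive in every library. Succinyl-CoA synthetase pairs the shared alpha subunit Suclg1 with a beta subunit that is specific for ATP (Sucla2) or GTP (Suclg2). Suclg2 had 2.87, 3.35 and 2.65 TPM. Sucla2 had 11.5, 11.9 and 10.1 TPM, which gave a log2 ratio of Suclg2 to Sucla2 of -1.92 ± 0.083. The ATP-specific subunit thus had the higher mRNA level in every library, and Suclg1 at 14.6 ± 1.07 TPM was above both. On expected counts, which carry no length correction, the mean ratio of Suclg1 to Sucla2 was -0.0, and its sign differed between libraries.

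The cycle closes with fumarase (Fh1) and malate dehydrogenase. Fh1 had 4.71, 6.18 and 4.99 TPM. Mdh1, the cytosolic enzyme of the malate-aspartate shuttle, had 25.0, 30.6 and 26.4 TPM. Mdh2, the mitochondrial malate dehydrogenase (chromosome 5, 135778480 to 135790398), had the highest gene total of the 32, with 45.6, 57.2 and 52.3 TPM, and did not overlap with Glud1 below it. In the second transcript table, described below, Mdh2 was under Glud1 in replicate 1, with 22.3 against 23.0 TPM. The log2 ratio of Mdh1 to Mdh2 was -0.92 ± 0.062, and -0.49 ± 0.08 in that second table. The cytosolic isozyme was therefore the lower mRNA for malate dehydrogenase, while for the NADP-linked isocitrate dehydrogenases the cytosolic Idh1 was the higher. In the cycle itself, Idh3a, Fh1 and Suclg2 were the lowest of 13 members, and the other 10 reached 10 TPM in every library.

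The pyruvate dehydrogenase complex consists of the E1 subunits Pdha1 and Pdhb, the E2 subunit Dlat and the shared E3 subunit Dld. Pdha1 had 15.4, 15.6 and 15.4 TPM and varied least of the 32 on the TPM scale, with a coefficient of variation of 0.802%. Pdhb had 16.2, 17.5 and 15.7 TPM, and the log2 ratio of Pdha1 to Pdhb was -0.09 ± 0.067, negative in 3 of 3 libraries. The ratio was 0.95 on expected counts, so the order of the E1 subunits rests on the length correction. Dlat had 6.79, 7.23 and 6.40 TPM and lay below Pdhb by a log2 ratio of -1.27 ± 0.024 and below its counterpart Dlst by -1.66 ± 0.081. Over protein-coding transcripts Dlat to Pdhb was -1.88 ± 0.12.

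Other routes feed or drain the cycle at malate, oxaloacetate and 2-oxoglutarate. Glud1, glutamate dehydrogenase, had 37.9, 39.4 and 33.7 TPM and exceeded Ogdh by 0.59 ± 0.084 on the log2 scale. Pcx, pyruvate carboxylase, which makes oxaloacetate from pyruvate, had 0.17, 0.29 and 0.21 TPM with 41, 112 and 71 counts. It lay below Pdha1 by a log2 ratio of -6.15 ± 0.38. The level of Pcx is uncertain, because the mean of the posterior TPM that the authors deposited was 0.637, and the upper limits of their intervals were 1.39, 0.903 and 1.03 TPM. The malic enzymes turn malate into pyruvate. Cytosolic Me1 had 1.13, 1.24 and 0.67 TPM, so it crossed the threshold in replicates 1 and 2 and not in replicate 3. Mitochondrial Me2 had 4.99, 4.81 and 5.52 TPM and exceeded Me1 in all 3, and the log2 ratio of Me1 to Me2 was -2.38 ± 0.58. Replicate 3, at -3.04, stood furthest from the others in that ratio.

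Fatty acids enter the matrix through the carnitine palmitoyltransferases Cpt1a, on the outer membrane, and Cpt2, on the inner membrane. Cpt1a (chromosome 19, 3322334 to 3385733) had 18.3, 16.8 and 16.8 TPM. Cpt2 had 3.02, 3.07 and 2.55 TPM, and the log2 ratio of Cpt1a to Cpt2 was 2.59 ± 0.13. The outer-membrane enzyme therefore had the higher mRNA level in all libraries. Acyl-CoA dehydrogenases for very long (Acadvl), long (Acadl) and medium chains (Acadm) carry out the oxidation that opens each round. Acadl had 22.9, 19.8 and 19.5 TPM, with the highest mean of the 10 fatty acid oxidation members, though Etfb was above it in replicate 2. Acadm had 8.70, 9.86 and 10.03 TPM and Acadvl 8.20, 8.56 and 8.02 TPM, and Acadl exceeded Acadm by 1.12 ± 0.24 and Acadvl by 1.33 ± 0.14 on the log2 scale. The order of Acadvl and Acadm was less settled, with a ratio of -0.20 ± 0.12 on TPM and 0.04 on expected counts.

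Electrons from these dehydrogenases pass to the flavoprotein dimer of Etfa and Etfb and then to its oxidoreductase Etfdh. Etfa had 15.3, 14.0 and 11.8 TPM and Etfb 18.5, 22.0 and 18.1 TPM, a log2 ratio of Etfa to Etfb of -0.52 ± 0.21 that was 0.29 on expected counts. Etfdh had 6.05, 6.43 and 5.72 TPM, below Etfa by a ratio of -1.17 ± 0.15. The mitochondrial trifunctional protein, which carries out the later steps for long chains, is made of Hadha and Hadhb. Hadha had 18.2, 19.5 and 18.8 TPM and Hadhb 11.5, 12.2 and 11.7 TPM. Their log2 ratio was 0.67 ± 0.014, the smallest SD of the 26 pairs compared here. Among the 496 possible pairs of the 32 genes, whose median SD was 0.137, it was number 10 from the smallest. A low place can come from ranking the steadiest of 26 pairs, so it does not set this pair apart. That small spread held for the gene totals only, since the ratio was 0.93 ± 0.08 in the second table and -0.35 ± 0.15 over protein-coding transcripts.

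**Figure D2:**
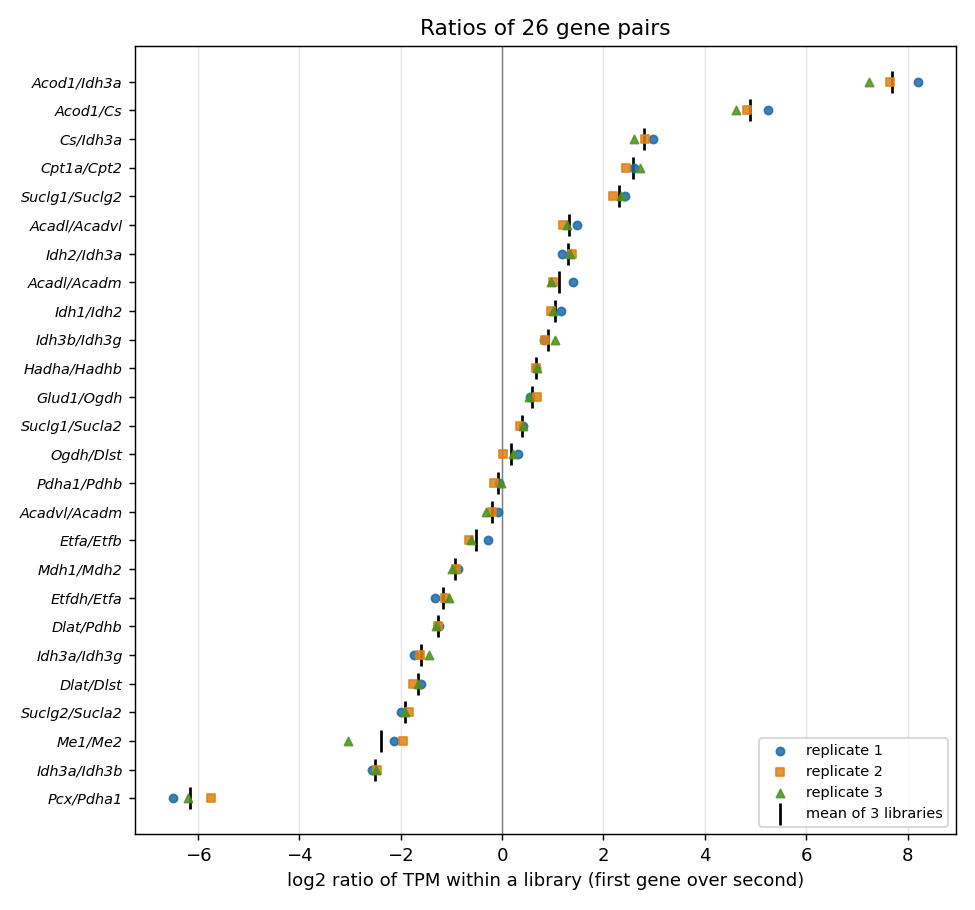
The log2 ratio of TPM within each library for 26 pairs of subunits, isozymes or neighbouring steps, written as first gene over second; each symbol is a library and the black bar the mean of 3. All 26 ratios had the same sign in the 3 libraries, 17 were larger than 1 in size, and 20 had an SD under 0.2.

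Hadha and Hadhb are also neighbours on chromosome 5 and are transcribed away from each other. Their RefSeq start sites lie 273 bases apart, and the windows that run 250 bases before to 50 bases after each start share 228 bases (chr5:30155003-30155230). Both windows are printed because they are largely the same stretch of DNA, read on opposite strands, in front of the subunits of 1 enzyme complex. Sequences are from RefSeq (GRCm38.p6), 5′ to 3′ on the strand of each gene, with the GC box GGGCGG or its reverse complement in capitals.
Hadha, chr5:30154931-30155230, minus strand: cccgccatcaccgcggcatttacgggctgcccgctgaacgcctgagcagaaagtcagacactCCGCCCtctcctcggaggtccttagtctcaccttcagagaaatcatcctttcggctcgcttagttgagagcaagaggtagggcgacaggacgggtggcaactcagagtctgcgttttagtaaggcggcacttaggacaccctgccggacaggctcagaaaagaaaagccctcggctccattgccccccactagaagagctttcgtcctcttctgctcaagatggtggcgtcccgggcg
Hadhb, chr5:30155003-30155302, plus strand: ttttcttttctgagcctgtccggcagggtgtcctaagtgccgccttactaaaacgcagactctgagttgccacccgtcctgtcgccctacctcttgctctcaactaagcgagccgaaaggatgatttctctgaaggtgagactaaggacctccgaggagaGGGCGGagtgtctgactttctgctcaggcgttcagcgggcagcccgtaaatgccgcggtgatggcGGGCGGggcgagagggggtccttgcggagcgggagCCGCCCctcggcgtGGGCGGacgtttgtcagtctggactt
The Hadha window holds 1 match to the GC box and the Hadhb window 4.

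Promoter windows were found in RefSeq for 30 of the 32 genes, 38 windows in all, and 8 motifs were searched on both strands, none of which holds the letters of another. The GC box GGGCGG was in 26 of 38 windows (68.4%), against 35.7% of all 32851 windows of this length. The CCAAT box (CCAAT) was in 22 (57.9%), against 37.4% of all windows. The NRF1 core GCATGCGC was in 6 windows of 5 genes, namely Acadm, Etfa, Etfdh, Glud1 and Ogdh, which is 15.8% against 2.71% of all windows. The cyclic AMP response element TGACGTCA was in 4 windows of Mdh2 and Ogdh (10.5% against 1.79%). The ETS family motif CCGGAAGTG was in 2 windows, those of Cpt2 and Dlst (5.26% against 2.03% of all windows), and the YY1 motif AAGATGGCG in 1, that of Idh3g (2.63% against 1.40%). The estrogen-related receptor motif TCAAGGTCA was in 0 windows, against 0.423% of all, and the TATA box TATAAA in 0, against 13.6% of all. Windows of 1 gene overlap each other, and a match gives the letters only, not a bound site. The windows of all genes were not matched to the 32 genes by level or base content, so these shares do not show motifs particular to the 32.

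The deposited tables also split each gene into its annotated transcripts. The first transcript table was made from transcriptome alignments and the second from the reads directly, and both named the same leading transcript for 28 of the 32 genes, as they did for 7410 of the 8224 detected nuclear protein-coding genes with 2 or more transcripts. The exceptions were Idh3a, Suclg2, Sucla2 and Pcx. Of the 32 genes 7 (21.9%) had under 90% of their TPM in transcripts annotated as protein-coding in the first of these tables, against 2217 of those 8224 genes (27.0%). The 7 were Hadha, Idh3a, Mdh2, Dlat, Dlst, Acadm and Idh3b.

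**Figure D3:**
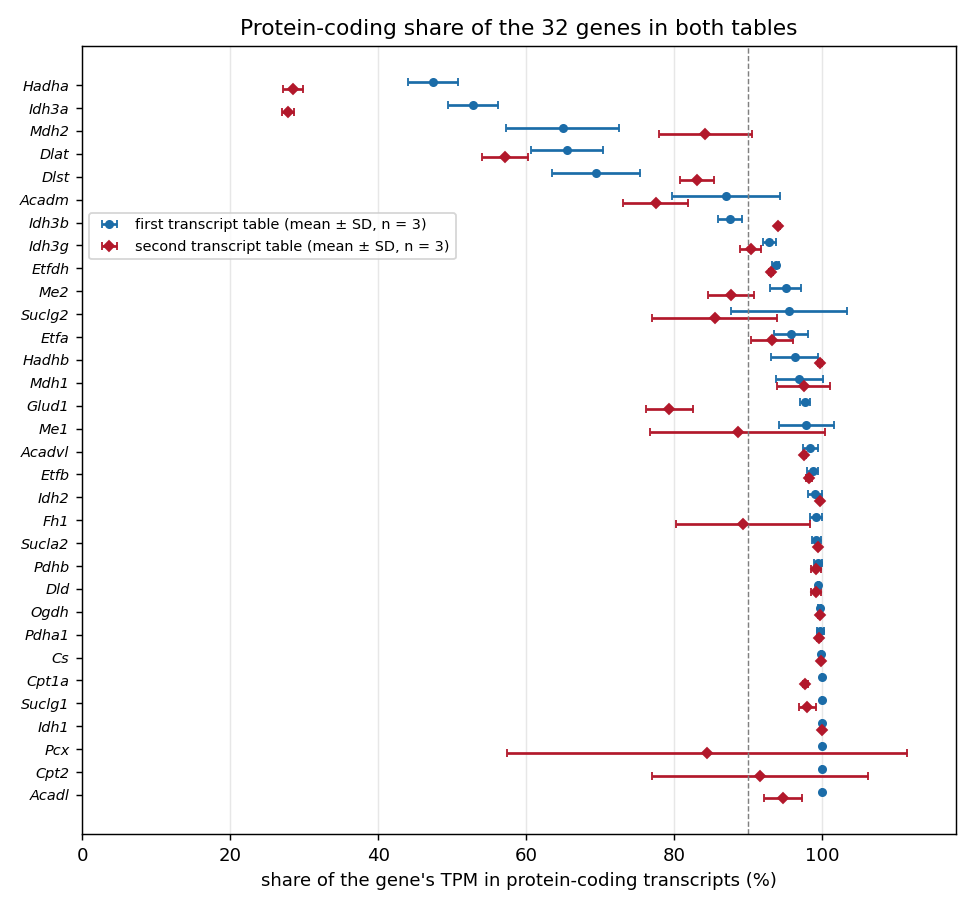
Share of each gene's TPM that falls in transcripts annotated as protein-coding, in percent, for the first (circles) and the second transcript table (diamonds); points are means and bars SD over 3 libraries, some of which pass 100%, and the dashed line marks 90%. Hadha and Idh3a had the lowest shares in both tables, and 7 genes lay under the line in the first table and 12 in the second.

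Hadha had the lowest coding share of the 32, at 45.0, 51.3 and 45.9% in the first table. Its other main transcript, Hadha-201 (2552 bases), has no annotated coding sequence and took 54.7, 44.2 and 53.3%, against 45.1, 51.3 and 45.9% for the coding Hadha-205 (4017 bases). The second table placed still less in coding transcripts, 28.5 ± 1.34%. Both models have 20 exons, and at the 3′ side Hadha-205 reaches 30118304 and Hadha-201 reaches 30119426. The order of the trifunctional protein subunits depends on this split, on which the tables differed. Over protein-coding transcripts alone Hadha relative to Hadhb gave -0.49, -0.20 and -0.37 in replicates 1, 2 and 3, so the sign was opposite to that of the gene totals in every library. The coding share of Hadhb was 96.3 ± 3.17%.

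Idh3a was the other gene with a low coding share, 52.1, 49.8 and 56.5% in the first table and 27.8 ± 0.848% in the second. Idh3a-203, annotated as a retained intron, led in the first table with 47.7, 50.2 and 40.2%. Idh3a-204, annotated for nonsense-mediated decay, led in the second with 42.3, 32.8 and 47.5%, but took 0, 0 and 3.28% in the first. These models end at 54603936 and 54603945, short of the end at 54604661 of the coding Idh3a-205 and Idh3a-201. The tables thus differed on which model holds these reads, while both left Idh3a below the other subunits of its complex. Over protein-coding transcripts the log2 ratio of Idh3a to Idh3b was -3.23 ± 0.11 and that of Idh3a to Idh3g -2.41 ± 0.21. Ratios to Idh3a were larger on that measure, at 2.20 ± 0.15 for Idh2 and 8.62 ± 0.55 for Acod1.

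Mdh2, the member with the highest gene total, was split between a coding transcript of 1456 bases, with 72.6, 57.2 and 64.6%, and one of 1112 bases annotated for nonsense-mediated decay, with 27.4, 42.5 and 34.7%. The models differ at exon 2 of the coding transcript, which was in transcripts that took 65.0 ± 7.57% of the gene's TPM in the first table and 84.3 ± 6.22% in the second. The exon is printed because its 169 bases are not a multiple of 3, so a transcript that leaves it out changes reading frame.
Mdh2 exon 2, chr5:135783305-135783473, plus strand, mm10: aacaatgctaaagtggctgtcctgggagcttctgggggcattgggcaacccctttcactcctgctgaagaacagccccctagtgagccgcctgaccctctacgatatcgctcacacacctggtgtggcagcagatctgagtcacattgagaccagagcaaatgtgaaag
Over protein-coding transcripts Mdh2 stood at 33.3 ± 0.624 TPM, below Glud1 (36.1 ± 2.76) and Cs (36.0 ± 3.71) in the order of means. In replicate 3 the order was the reverse, with Mdh2 at 33.97, Glud1 at 32.98 and Cs at 31.69 TPM. The log2 ratio of Mdh1 to Mdh2 over these transcripts was -0.34 ± 0.12, with the same sign in 3 of 3 libraries.

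Ogdh offers a choice between alternative coding exons at position 4 of 23. The 103-base exon of Ogdh-201 and Ogdh-204 was in transcripts with 74.3, 78.6 and 77.7% of Ogdh TPM, and the 91-base exon of Ogdh-202 and Ogdh-203 in transcripts with 23.6, 19.9 and 20.4%. The longer exon led in every library, and the second table gave 77.1 ± 2.42% for the longer and 20.8 ± 1.93% for the shorter, so the tables lay within the spread between libraries. In mammals this choice is known to set the sensitivity of the enzyme to calcium. The exons are printed to show how far they differ; they match at 61 of 110 aligned positions (55.5%), and capitals mark letters that differ or have no partner.
Ogdh exon 4 of Ogdh-201, chr11:6316978-6317080, plus strand, mm10: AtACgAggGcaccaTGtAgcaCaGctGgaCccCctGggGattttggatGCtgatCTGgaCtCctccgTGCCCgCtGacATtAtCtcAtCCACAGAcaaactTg
Ogdh exon 4 of Ogdh-202, chr11:6316765-6316855, plus strand, mm10: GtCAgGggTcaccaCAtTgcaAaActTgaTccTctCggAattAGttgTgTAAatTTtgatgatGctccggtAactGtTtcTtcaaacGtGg

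The remaining splits were of several kinds. Dlst-211 and Dlat-202, which have no annotated coding sequence, took 27.6 ± 5.58% of Dlst and 34.4 ± 4.84% of Dlat in the first table, against 12.5 ± 1.49% and 41.7 ± 3.03% in the second. By counts in the first table, Dlst-211 took 22.8% and Dlat-202, of 770 bases, 6.95%. A short coding model of 542 bases took 43.1 ± 3.09% of Fh1, beside 56.1 ± 2.80% for the model of 2636 bases. By counts these Fh1 models took 8.99 and 90.8%. For the beta subunits of succinyl-CoA synthetase the tables named different coding models. The Suclg2 model of 3367 bases took 73.4 ± 7.36% in the first table and 21.5 ± 2.90% in the second, and the Sucla2 model of 2229 bases took 56.4 ± 1.21% in the first and 41.2 ± 1.37% in the second. Both main Sucla2 models carry coding sequences of 1389 bases. The transcripts of Pcx, at its few counts, changed from library to library, with Pcx-201 at 100, 80.0 and 0%.

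Gene levels differed between the 2 kinds of table. The second table's TPM over the gene table's TPM had a median of 0.554 over the 32 genes, with a range of 0.507 (Mdh2) to 0.718 (Suclg2). Over 9271 detected genes the median was 0.557, with 5th and 95th percentiles of 0.477 and 0.709. Reads shared with other genes could touch some members. In 8 of the 32 genes, more than 10% of the 31-mers of the leading transcript also occur in another gene. Only the leading transcript of the first transcript table was examined, which for Hadha and Idh3a is not a coding one. The largest shares were in Etfb (68.0%, with the read-through gene Gm45233 at 0.0267 TPM) and Hadhb (66.1%, mostly with the pseudogene Gm13910 at 0.173 TPM), followed by Pdhb (41.9%) and Me1 (35.3%). For 22 of the 32 the share was under 1%. Of the 32 genes 11 overlap a gene on the opposite strand, and 3 of those partners were detected. These were Nop56 beside Idh3b (13.5 TPM, overlap of 5 bases), Dvl2 beside Acadvl (2.14 TPM, 2119 bases) and Wdpcp beside Mdh1 (1.36 TPM, 133 bases). The sources used here do not say if counting used strand, so reads in these overlaps cannot be told apart.

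The levels were then set beside other genes of the same pathways and of the pathways before and after them. Of 13 other TCA genes 9 were detected, led by the succinate dehydrogenase subunits Sdhb (66.2 ± 1.86 TPM), Sdha (43.8 ± 3.42) and Sdhd (40.4 ± 1.09). Aco1, which serves as an iron sensor, had 7.91 ± 0.694 TPM. Ogdhl (0.01) and Dhtkd1 (0.0467), relatives of Ogdh, were near 0 TPM, and Fahd1 (0.863) and Sdhaf3 (0.28) were not detected.

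Of 14 other pyruvate genes 9 were detected, with the mitochondrial pyruvate carrier subunits Mpc1 (49.7 ± 7.13 TPM) and Mpc2 (18.5 ± 1.18), the phosphatase Pdp1 (8.26 ± 1.91), which activates pyruvate dehydrogenase, and the complex protein Pdhx (3.75 ± 0.231) highest. Among the inhibitory pyruvate dehydrogenase kinases, Pdk3 had 3.61 ± 0.373 TPM and Pdk1 1.97 ± 0.190 TPM, and Pdk2 (1.11 ± 0.123) was under 1 TPM in replicate 1. Pdk4 had 0 counts, which allows up to 0.0384 TPM (the worth of 3 counts in the shallowest library). Pck1, the cytosolic enzyme that makes phosphoenolpyruvate, and the testis form Pdha2 also had 0 counts (limits 0.0301 and 0.0227 TPM), and Me3 had 0.00333 TPM. These limits cover counting error only.

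Of 33 other genes of fatty acid uptake and oxidation 27 were detected, with a median of 7.17 TPM. The acyl-CoA synthetase Acsl1 had 68.1, 48.4 and 28.7 TPM and the fatty acid binding protein Fabp4 70.8, 42.0 and 27.8 TPM, both highest in replicate 1 and lowest in replicate 3. The transporter Cd36 (39.1 ± 1.17) and Acsl5 (25.7 ± 3.68) followed. The other isoforms of the carnitine palmitoyltransferase of the outer membrane, Cpt1b (0.04) and Cpt1c (0.0167), were near 0 TPM, so Cpt1a was the only detected isoform of the 3. Acsl6 and Acaa1b had 0 counts (limits 0.0208 and 0.0538 TPM).

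Citrate, glutamate and itaconate genes were led by Acod1, with 1425.9, 1095.8 and 777.7 TPM. Acod1 exceeded Cs by a log2 ratio of 4.90 ± 0.32 and Idh3a by 7.70 ± 0.49, the highest ratios of the 26 pairs. The dicarboxylate carrier Slc25a10 had 35.5 ± 5.36 TPM, the oxoglutarate carrier Slc25a11 30.5 ± 1.79 TPM and the ketone body enzyme Oxct1 35.9 ± 0.998 TPM. Gls2 (0.0233) and Bdh1 (0.207) were the 2 of 16 not detected. Of 16 regulators, including the lipoylation enzymes that the dehydrogenase complexes need, 10 were detected. The nuclear receptor Esrra (9.79 ± 0.728 TPM), the ETS factor Gabpa (8.08 ± 0.490), the lipoyl synthase Lias (5.43 ± 0.326) and Pparg (5.16 ± 0.538) were highest. Ppara, a receptor known to drive fatty acid oxidation genes in liver, had 0 counts (limit 0.0378 TPM), and its coactivator gene Ppargc1a had 0.00333 TPM. Acacb (0.197) and the lipoyltransferase gene Lipt1 (0.237) were under 1 TPM.

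The list medians of log2(TPM + 1) were 4.05 ± 0.12 for the 13 TCA cycle members, 4.04 ± 0.01 for the 9 pyruvate entry and partner members and 3.77 ± 0.09 for the 10 fatty acid oxidation members (n = 3). Fatty acid oxidation minus TCA cycle was -0.28 ± 0.05, with -0.26, -0.33 and -0.24 in replicates 1, 2 and 3, while pyruvate entry minus TCA cycle was -0.01 ± 0.11 and changed sign between libraries. All 32 members minus 20 glycolysis genes was -1.40 ± 0.08, and minus 30 subunits of the respiratory chain and ATP synthase it was -1.82 ± 0.03, both negative in 3 of 3 libraries. Glycolysis, whose enzymes stand before pyruvate entry, had 18 of 20 genes detected and a median of 42.7 TPM. Gapdh (334 ± 35.5 TPM), Aldoa (165 ± 16.9), Pkm (150.2 ± 13.0), which makes pyruvate, and the lactate dehydrogenase subunit Ldha (106 ± 10.4) were highest, while Aldoc (1.00) and Ldhb (1.00) were not detected and Pfkm (1.61) was low. All 30 respiratory chain and ATP synthase genes were detected (median 53.9 TPM), with Atp5b (240.7 ± 14.3), Cox4i1 (189.6 ± 15.2), Cox5a (144 ± 9.96) and Cox6b1 (142 ± 10.9) highest and Ndufv1 (10.3 ± 0.469) lowest. With 3 libraries an exact two-sided sign-flip test cannot go below p = 0.25, so no p is given for these differences.

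**Figure D4:**
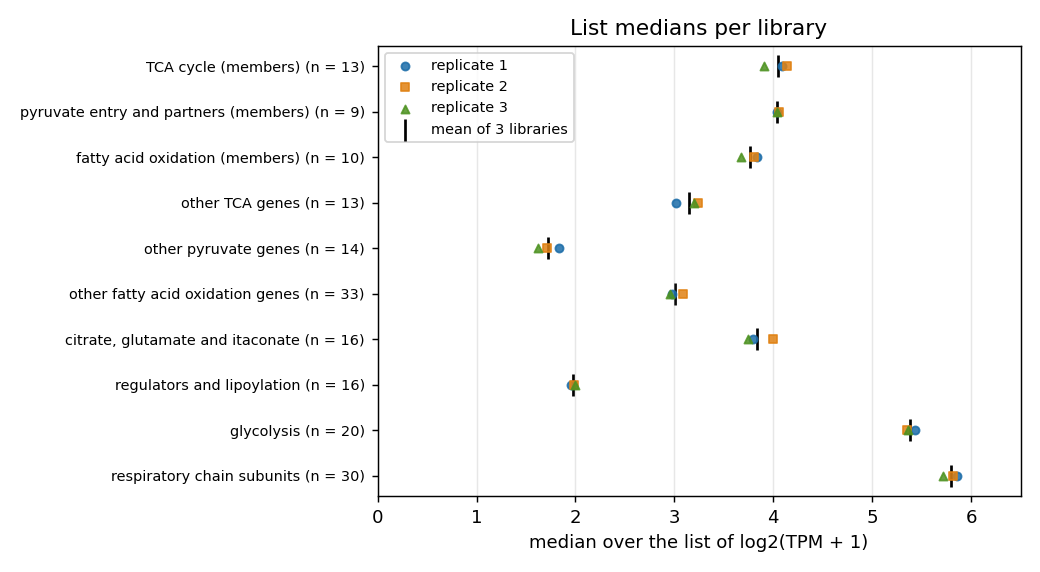
Median over each list of log2(TPM + 1), per library (symbols) with the mean of 3 libraries (black bars); n is the number of genes in a list, and the 3 member lists are at the top. The member lists lay between 3.67 and 4.14, below glycolysis and respiratory chain genes in every library and above the other TCA, pyruvate and fatty acid oxidation genes.

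The spread over the libraries was small. The coefficient of variation of TPM had a median of 8.32% over the 32 genes and 10.1% over detected nuclear protein-coding genes, and it was under 15% for 30 of the 32. A test of variability in edgeR, the residual deviance of rounded expected counts under the trended dispersion with Benjamini-Hochberg adjustment over 12256 genes, called 240 genes (1.96%). Of the 32 members it called 0, and 0 had an unadjusted p under 0.05, against 843 of all genes. Without replicate 1, 2 or 3 the test called 119, 102 and 82 of all genes, and the members called were 0 each time. In simulated data of the same size, run on 12108 genes, the test recovered 98% of genes changed 4-fold in 1 library. It recovered 32% of those changed 2-fold, so most changes of the smaller size would be missed. The changed genes were drawn from the better-counted genes only. The simulated counts followed the trended dispersion that the test assumes, so recovery in real data could be lower. After TMM scaling, the span between the highest and lowest library had a median of 0.17 log2 CPM over the 32 and 0.30 over all genes tested. The genes tested were not matched to the 32 by level, so these medians do not show a steadiness particular to the 32. The widest member was Me1, with 2.49, 2.58 and 1.86 log2 CPM, lowest in replicate 3, and an adjusted p of 1 in the edgeR test. Idh2 followed among genes detected, with 4.71, 5.13 and 5.12 log2 CPM, and Glud1 was the narrowest, with a span of 0.02. Pdha1, which varied least on TPM, spanned 0.12 log2 CPM, so the steadiest member depended on the scale.

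**Figure D5:**
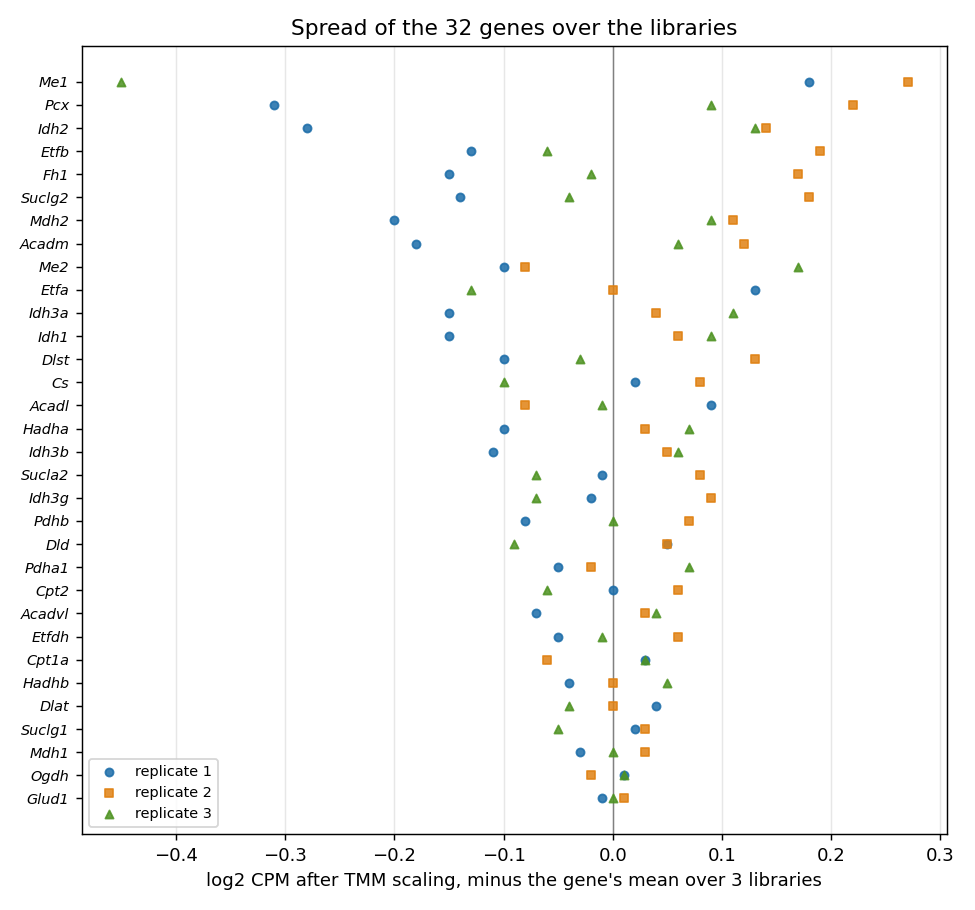
Log2 CPM after TMM scaling of each of the 32 genes in each library, minus the gene's own mean over 3 libraries, ordered by span; each symbol is a library. All but Me1 and Pcx spanned less than 0.5, and replicate 1 (circles) was the lowest library for 20 of the 32 genes.

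On this scale replicate 1 was the lowest library for 20 of 32 members, replicate 2 for 3 and replicate 3 for 9, where the shares of all genes tested were 38.3, 30 and 31.7%. Replicate 2 was the highest for 18, replicate 3 for 9 and replicate 1 for 5, where the shares of all genes were 32.1, 32.8 and 35.1%. The median deviation of the 32 genes was -0.05, 0.055 and 0.003 log2 CPM in replicates 1, 2 and 3. On TPM the order was another, with replicate 3 lowest for 20 members and replicate 1 for 11. Nuclear RNAs differed between the libraries as well, and both Malat1 (103, 132 and 345 TPM) and Rn7sk (21185.9, 37904 and 76327 TPM) were highest in replicate 3. Of 6 nuclear RNAs listed 3 were detected, and Meg3 was near 0. Their part in the order of the libraries was not tested.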

How the data were processed

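Each of the 3 libraries has a gene table and 2 transcript tables on mm10 with GENCODE M21, per the README notes, which name no program. Expected counts (gene table) and estimated counts (second transcript table) are as the authors' programs assigned them, not whole and not normalized, per the file headers. TPM were computed by the authors, with effective lengths. The percent values are the share of a gene's TPM per transcript, per the file headers. The posterior mean TPM and its interval, deposited in the gene table, were printed for Pcx only.

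Rows that are not annotated genes (0.0959 to 0.228% of counts) entered no library size or test, of 81881 rows in all. From the TPM, list medians with a pseudocount of 1 and pair ratios without one were computed. For variability, expected counts were rounded and fitted with edgeR 4.0.16 under R 4.3.3 (TMM, filterByExpr, estimateDisp), a step checked on simulated data. A shared 31-mer is one of a gene's leading transcript that is also found in a transcript of another gene. Transcript shares use the TPM of each transcript over the gene's sum. Every member was named, as were the 4 highest and up to 4 lowest of each other list, and every gene of the pairs; other names were picked with their values in view. The members and lists were chosen with earlier results of these data known. Alternatives covered rescaled TPM, the second transcript table, other pseudocounts, thresholds and size factors, and leaving out each replicate. No sample was left out. Protein sequences were not used here, and 1 gene that the naming rule covers is not reported here.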

Additional observations from a re-analysis of the deposited data

How the results depend on the processing

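The 30 detected members became 31 on rescaled TPM and 25 at a threshold of 5 TPM. List medians moved with the scale: for all members, TCA cycle, pyruvate entry and fatty acid oxidation they were 5.65, 5.72, 5.71 and 5.43 on TPM rescaled over nuclear protein-coding genes and 3.18, 3.25, 3.21 and 2.98 in the second transcript table. A pseudocount of 0.1 gave 3.96 for pyruvate entry and 3.67 for fatty acid oxidation, and over detected members the pyruvate entry median was 4.12. Members minus respiratory chain was -1.87 rescaled, -1.78 in the second table, -1.88 at a pseudocount of 0.1 and -1.76 over members detected, where members minus glycolysis was -1.74. Library order moved on log2 TPM: replicate 1 was lowest for 11 members, replicate 2 for 1 and replicate 3 for 20, and replicate 3 was highest for 2. Pdha1 to Pdhb was 0.95 on expected counts, Etfa to Etfb 0.29 and Acadvl to Acadm 0.04, means opposite in sign to those on TPM. Suclg1 to Sucla2 was -0.0 there. Of 26 ratios on expected counts 24 kept 1 sign in every library, and Suclg1 to Sucla2 and Acadvl to Acadm did not. The lengths of the genes enter TPM and not expected counts. Over protein-coding transcripts alone, chosen after seeing the data, Hadha to Hadhb was -0.35, and 25 of 26 ratios kept 1 sign in every library. Genes called variable numbered 82 to 119 with a replicate left out (82 without replicate 3) and 137 at an adjusted p of 0.01, and members called stayed at 0. No paired analysis was possible because the libraries form 1 group. The protein identity of isozymes was not run. With 3 libraries of 1 donor record, p-values measure only the spread between these samples, and most 2-fold changes in 1 library were missed in simulated data.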
